A study of Homo sapiens with 18 samples.

Results

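NQO1, NQO2, PTGR1, CBR1, EPHX1 and the aldo-keto reductases AKR1B1, AKR1B10, AKR1C1, AKR1C2 and AKR1C3 are 10 genes. Their enzymes chemically convert reactive quinones, carbonyls, alkenals and epoxides. The genes were taken by symbol, not by a measured value, and all 10 were present among the 23411 symbols of each count file. NQO1 reduces quinones by passing a pair of electrons at once, which avoids the semiquinone radical that recycles oxygen into superoxide. The aldo-keto reductases and CBR1 reduce aldehydes and ketones with NADPH, PTGR1 saturates the reactive double bond of alkenals, and EPHX1 opens epoxides with water. Many such genes are classical targets of NRF2, a transcription factor that KEAP1 keeps at a low level until oxidants or electrophiles modify it. NRF2 then binds antioxidant response elements (AREs) near its target genes, and NQO1 is the target most often used to read its activity. The retinal pigment epithelium (RPE) takes up oxidised photoreceptor membranes every day, so it depends on enzymes of this kind.

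The data are mRNA-seq counts of ARPE-19, a human RPE cell line that arose spontaneously, in 6 groups of 3 libraries each. The control line held the lentiviral Cas9 vector and no gRNA. NRF2 ΔC cells were 1 clone made with the same vector and a gRNA against exon 5 of NFE2L2, the gene for NRF2, with stop codons at positions 503 and 505 of the edited alleles. Each line was left untreated with the vehicle, Milli-Q water, or received 1 mM NACET, the ethyl ester of N-acetylcysteine, or 0.2 mM H2O2. Sources differ on the timing: 8 h of treatment after 40 h of culture by the paper and the series design, 2 h after 22 h by the labels of the samples. They also differ on serum, with 10 % in the paper, 1 % in the labels of the samples and both in the series design. The clone and the edit cannot be told apart, because all 9 libraries of edited cells come from that clone.

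Reads on genes ranged from 16673306 to 25951154 per library. Levels are CPM, the reads of a gene as a share of the reads of its library scaled with TMM. A gene was called where the adjusted p (edgeR's quasi-likelihood test, Benjamini-Hochberg) was under 0.05 and the log2 fold change between groups was 0.6 or more in either direction. Values after ± are the SE of a log2 fold change or the SD of a level. Groups of 3 libraries often separate without overlap. Of 12848 genes that averaged at least 1 CPM, 13.1 % lay higher and 13.8 % lower with NACET than untreated in control cells. With H2O2 there, 18.6 % lay higher and 17.1 % lower. In the other comparisons of 2 groups these shares ran from 7.51 % to 18.5 %. In bulk samples, fewer cells of a kind and less RNA per cell cannot be told apart. NFE2L2 itself did not differ between the lines, with log2 fold changes of 0.02 untreated, 0.06 with H2O2 and 0.03 with NACET (adjusted p = 0.963, 0.784 and 0.898). Counts per gene do not show the stop codons. The RPE label was only partly matched, since 9 of 14 RPE marker genes averaged at least 1 CPM, among them KRT8, KRT18, OTX2 and MITF, while RPE65, TYR, CRX and TTR averaged under 0.1 CPM. Markers of other cell types averaged under 1 CPM apart from COL1A1, CD68, TUBB3 and GLUL, which many cultured cells express. VWF and CDH1 averaged 0.66 and 0.50 CPM, with 1.51 and 2.83 CPM in their highest libraries. The 5 neuron and glia markers summed to 278 to 358 CPM in untreated NRF2 ΔC cells and 207 to 214 CPM in untreated control cells, through TUBB3, and GFAP averaged under 0.1 CPM. In control cells the 14 RPE markers summed to 1349 to 1401 CPM untreated, 965 to 1039 CPM with H2O2 and 1125 to 1274 CPM with NACET. Much of these sums is KRT8 and KRT18, which averaged 544 and 392 CPM over the 18 libraries. Of the 9 RPE markers tested in control cells, none was called lower with either treatment. KRT18 and KRT8 fell with H2O2 there, at -0.525 and -0.487 on the log2 scale (adjusted p = 0.00937 and 0.0123), under the fold limit. BEST1, at a mean of 1.07 CPM, was called higher with H2O2 (log2 fold change 1.70 ± 0.26, adjusted p = 0.00751), and NACET called none. In NRF2 ΔC cells H2O2 called 2 of 9 RPE markers lower and 1 higher, and NACET none of 8. Between the lines, 1 of 8 was lower in NRF2 ΔC cells with NACET and 1 of 9 higher with H2O2. None of 8 was called untreated. The part of these differences in the results between lines and treatments was not tested.

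The stretch upstream of NQO1 is shown because NQO1 had the largest difference between the lines of the 7 members tested and holds TGACTCAGC. It lies on the minus strand of chr16:69760850-69760978 (hg19), from 515 to 387 bases before the start of the canonical transcript, outside any exon of that transcript, and the capitals mark TGACTCAGC.

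NQO1 upstream: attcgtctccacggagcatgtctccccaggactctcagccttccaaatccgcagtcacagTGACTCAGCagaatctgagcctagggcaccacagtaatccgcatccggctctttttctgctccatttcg

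The 1000 bases upstream of each of the 10 genes were searched on both strands for the ARE core TGACNNNGC. They were also searched for TGACTCAGC, 1 fixed spelling of that core, called the full form here. NQO1 held the only full form among the 10 genes, and 1.30 % of the 19812 upstream windows of protein-coding genes held one. The letters of the full form were chosen, so its presence at NQO1 alone does not rank the sites. Whether other core sites are weaker AREs was not tested. The core was found upstream of NQO1, PTGR1, AKR1B10 and CBR1, and in 32.5 % of all windows, so a core match sets little apart. The other 6 windows had no match within these letters. The sites of AKR1B10 and CBR1 and 1 of the 2 of PTGR1 are printed with 10 bases on each side on the strand where the core reads forward, to show how they differ from that of NQO1 in the middle 3 letters.

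NQO1, chr16:69760910-69760918: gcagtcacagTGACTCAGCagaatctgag
PTGR1, chr9:114362624-114362632: catcaggcctTGACCTGGCttctgcaagg
AKR1B10, chr7:134211461-134211469: acagatgctgTGACGTGGCcctggcctgt
CBR1, chr21:37441800-37441808: acaaagctacTGACTTAGCcagattttcc
CBR1, chr21:37442163-37442171: ccagctagccTGACTTTGCagaacccgca

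In control cells NACET raised 6 of the 7 members tested, NQO1, AKR1C3, PTGR1, EPHX1, CBR1 and NQO2, against 1.39 % of the 13696 genes tested that were called higher. H2O2 raised NQO1 and PTGR1, where 2.96 % of 13691 genes were called higher. Both treatments were compared with the same 3 untreated libraries, so these 2 sets of values are not independent. Between the treatments, AKR1C3 was higher with NACET than with H2O2, as were 2.25 % of 13581 genes, and no other member was called. In NRF2 ΔC cells NACET changed no member at the call limits, where 1.39 % of 13542 genes were called in either direction. At an unadjusted p under 0.05, 2516 of those genes passed, and DESeq2 called none of the members either. Blocking on the replicate number, 8.82 % of the genes were called in that comparison and AKR1C3 was called lower. H2O2 lowered AKR1C3 in NRF2 ΔC cells, and 5.55 % of 13543 genes were called lower there.

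Compared with control cells, untreated NRF2 ΔC cells had less NQO1, AKR1C3 and CBR1, where 3.12 % of 13710 genes were called lower. With H2O2 the genes lower in NRF2 ΔC cells were NQO1, AKR1C3, CBR1, PTGR1 and EPHX1 (4.2 % of 13580 genes), and with NACET also AKR1B1 (3.86 % of 13627 genes). No member was called higher in NRF2 ΔC cells in the 3 comparisons. The same 7 genes passed the filter on low counts in all comparisons, and AKR1B10, AKR1C1 and AKR1C2 failed it in all. Over the 7 genes the median log2 fold change in control cells was 0.82 with NACET and 0.48 with H2O2, beside -0.006 and -0.004 over all genes tested. In NRF2 ΔC cells it was 0.06 with NACET and 0.05 with H2O2, beside -0.007 and -0.009. The number of genes called rests in part on single libraries. In both directions together, NACET in control cells called 376 genes and 31 to 337 without 1 library, the fewest without NACET replicate 2 and then, at 35, without untreated replicate 2. H2O2 there called 867 and 290 to 1047, the fewest without H2O2 replicate 2. In NRF2 ΔC cells NACET called 188 and 0 to 462, with 0 without untreated replicate 2 or NACET replicate 2 and 462 without NACET replicate 1. H2O2 there called 1329 and 275 to 2582, the fewest without H2O2 replicate 2 and the most without H2O2 replicate 1. Nothing in the labels says that replicates came from separate cultures, so p-values measure the spread between these libraries, which may be technical.

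NQO1 lies on the minus strand of chr16:69740899-69760571 (hg19). It had 169.5, 335 and 179.8 CPM in the 3 untreated control libraries, 749, 997 and 687 CPM with H2O2, and 1045, 1195 and 1101 CPM with NACET. The treated libraries were all above the untreated ones, and untreated replicate 2 stood well above the other two. NQO1 rose by a log2 fold change of 2.30 ± 0.26 (SE) with NACET and 1.83 ± 0.27 with H2O2 (adjusted p = 0.00924 and 0.00641). Without untreated replicate 2 these were 2.69 and 2.22 (adjusted p = 0.00246 and 0.00760). Without NACET replicate 2 the NACET value was 2.25 with an adjusted p of 0.0511, so that call was lost. NACET libraries were also above all H2O2 libraries, by 0.48 ± 0.15 on the log2 scale, which was not called (adjusted p = 0.103).

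In NRF2 ΔC cells NQO1 had 15.6, 11.3 and 15.1 CPM untreated, 17.3, 14.6 and 16.7 CPM with H2O2 and 20.1, 19.1 and 22.6 CPM with NACET. All 9 values were far below the lowest control value. NACET libraries lay above the untreated ones without overlap, with a log2 fold change of 0.54 ± 0.16 (adjusted p = 0.126). Blocking on the replicate number gave an adjusted p of 0.000469, and the log2 fold change of 0.545 stayed under the call limit. With that block 5929 of 13542 genes had an unadjusted p under 0.05, against 2516 without it. With H2O2 it was 0.19 ± 0.18 (adjusted p = 0.501), and the groups overlapped. Between the lines the log2 fold change was -4.03 ± 0.30 untreated, -5.66 ± 0.19 with H2O2 and -5.79 ± 0.14 with NACET (adjusted p = 0.000192, 3.01e-06 and 1.65e-06). The mean level in control cells was 16.3 times that of NRF2 ΔC cells untreated and 54.1 times with NACET.

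**Figure D1:**
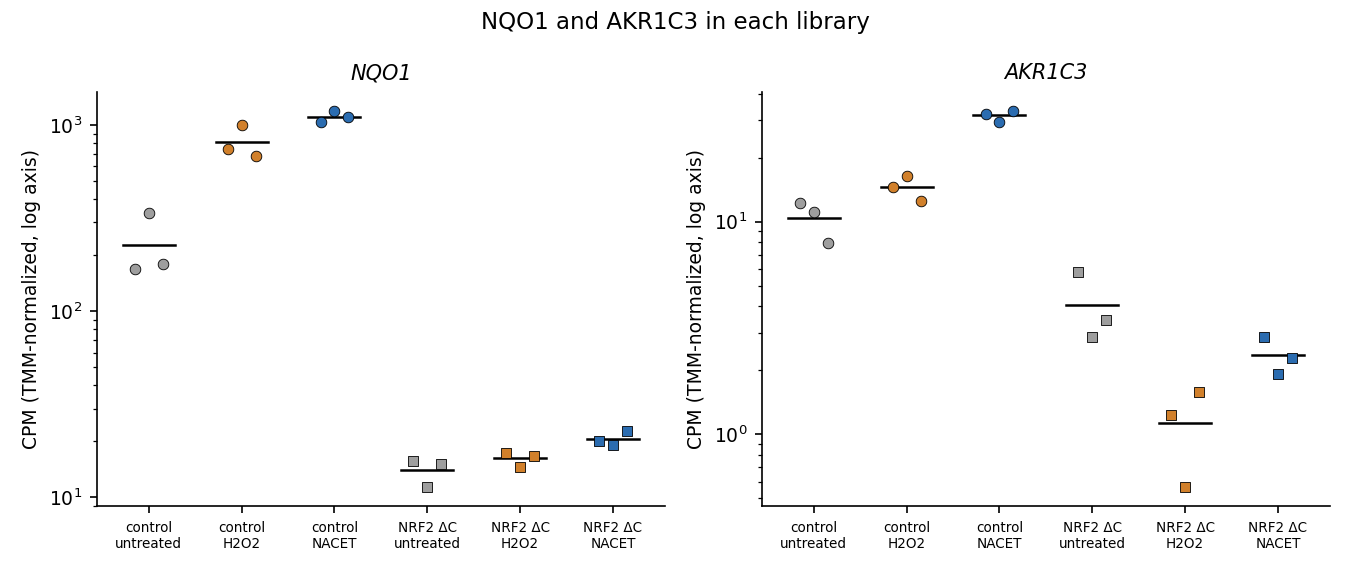
CPM of NQO1 and AKR1C3 in each library on a log axis, by group. Circles are control libraries, squares NRF2 ΔC libraries, and lines group means of 3. NQO1 sat between 687 and 1195 CPM in treated control cells and between 11.3 and 22.6 CPM in all NRF2 ΔC libraries. AKR1C3 was highest in control cells with NACET and lowest in NRF2 ΔC cells with H2O2.

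NQO2, the paralog of NQO1 that uses dihydronicotinamide riboside in place of NAD(P)H, lies on the plus strand of chr6:2988221-3019989. It had 18.1, 19.9 and 21.4 CPM in untreated control cells, 19.7, 24.4 and 21.8 CPM with H2O2, and 26.5, 32.5 and 33.5 CPM with NACET. The NACET libraries lay above all the others of control cells, with a log2 fold change of 0.65 ± 0.12 against untreated cells (adjusted p = 0.0353), and the H2O2 libraries overlapped the untreated ones. The NACET call was lost without any single library of the 6 (adjusted p = 0.0575 to 0.185). NRF2 ΔC cells had 14.2 to 18.7 CPM untreated, 12.8 to 20.8 CPM with H2O2 and 17.7 to 26.9 CPM with NACET, and these ranges overlapped. In none of the 3 treatments was the difference between the lines called, the value farthest from 0 being -0.53 ± 0.17 with NACET (adjusted p = 0.130).

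PTGR1, which reduces alkenals such as 4-hydroxynonenal as well as 15-oxo-prostaglandins and leukotriene B4 metabolites, lies on the minus strand of chr9:114312002-114362173. Its level was 48.0, 49.4 and 45.4 CPM in untreated control cells, 76.8, 97.6 and 71.8 CPM with H2O2, and 102.8, 120.8 and 135.9 CPM with NACET. These 3 ranges did not overlap, and untreated libraries were the lowest. PTGR1 rose by a log2 fold change of 1.34 ± 0.12 with NACET and 0.79 ± 0.12 with H2O2 (adjusted p = 0.00373 and 0.00744), and both calls held without each library in turn. NRF2 ΔC cells stayed between 33.0 and 45.0 CPM in all 9 libraries. There the log2 fold change was 0.08 ± 0.12 with NACET and 0.18 ± 0.14 with H2O2 (adjusted p = 0.766 and 0.425). Between the lines the log2 fold change was -0.35 ± 0.12 untreated, -0.95 ± 0.14 with H2O2 and -1.61 ± 0.12 with NACET (adjusted p = 0.194, 0.00427 and 0.000342).

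CBR1, a cytosolic carbonyl reductase of quinones and prostaglandins, lies on the plus strand of chr21:37442239-37445464. Untreated control cells had 60.2, 72.8 and 66.6 CPM, H2O2-treated ones 71.6, 82.3 and 75.4 CPM, and NACET-treated ones 97.6, 112.2 and 117.4 CPM. The NACET libraries lay above all others of control cells, with a log2 fold change of 0.72 ± 0.11 (adjusted p = 0.0202), and the H2O2 libraries overlapped the untreated ones (0.20 ± 0.10, adjusted p = 0.209). The NACET call was lost without any of the 3 untreated libraries or without NACET replicate 2 (adjusted p = 0.0522 to 0.123). NACET was above H2O2 by 0.53 ± 0.10 on the log2 scale, which passed on adjusted p (0.0239) and not on the fold limit. All 9 NRF2 ΔC libraries lay between 37.7 and 48.4 CPM, under the lowest control library. The log2 fold change between the lines was -0.64 ± 0.12 untreated, -0.96 ± 0.12 with H2O2 and -1.30 ± 0.10 with NACET (adjusted p = 0.0237, 0.00173 and 0.000371). The untreated call was lost without untreated control replicates 2 or 3 or without NRF2 ΔC replicates 1 or 2, with log2 fold changes of -0.56 to -0.63.

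EPHX1, the microsomal epoxide hydrolase, lies on the plus strand of chr1:225997826-226033264. Its level in control cells was 54.9, 53.2 and 45.0 CPM untreated, 72.5, 80.4 and 61.7 CPM with H2O2, and 86.9, 88.1 and 92.8 CPM with NACET. The 3 ranges were separate and stood in that order. NACET gave a log2 fold change of 0.82 ± 0.10 (adjusted p = 0.0131), a call lost without untreated replicate 2 or NACET replicate 2 (adjusted p = 0.0553 and 0.0928). H2O2 gave 0.49 ± 0.12 (adjusted p = 0.0362), under the fold limit. NRF2 ΔC cells had 37.7 to 43.7 CPM untreated, 39.0 to 51.7 CPM with H2O2 and 39.3 to 45.8 CPM with NACET, which overlapped. The difference between the lines was -0.30 ± 0.12 untreated, -0.65 ± 0.15 with H2O2 and -1.13 ± 0.10 with NACET on the log2 scale (adjusted p = 0.313, 0.0359 and 0.000629). The H2O2 call was lost without control H2O2 replicates 1 or 2 or NRF2 ΔC H2O2 replicates 1 or 2, with log2 fold changes of -0.55 to -0.66. Some exons of EPHX1 overlap TMEM63A on the opposite strand and some of PTGR1 overlap ZNF483, and reads were counted without regard to strand.

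AKR1B1, the aldose reductase of the polyol pathway, lies on the minus strand of chr7:134127108-134144036. Control cells had 153.8, 189.0 and 147.3 CPM untreated, 176.2, 207.3 and 169.0 CPM with H2O2, and 239.3, 247.5 and 229.6 CPM with NACET. The NACET libraries lay above the others, and H2O2 overlapped untreated. The log2 fold change with NACET was 0.56 ± 0.12 (adjusted p = 0.0443), which is under the fold limit, and with H2O2 it was 0.17 ± 0.12 (adjusted p = 0.375). NRF2 ΔC cells ranged from 93.0 to 167.3 CPM over the 9 libraries, with overlap of all 3 groups. The lines differed with NACET, at -0.80 ± 0.14 (adjusted p = 0.0127), and were not called apart with H2O2 or untreated (-0.55 and -0.30, adjusted p = 0.125 and 0.482). The call with NACET was lost without control NACET replicates 1 or 2 or NRF2 ΔC NACET replicate 3 (adjusted p = 0.0505 to 0.0700).

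**Figure D2:**
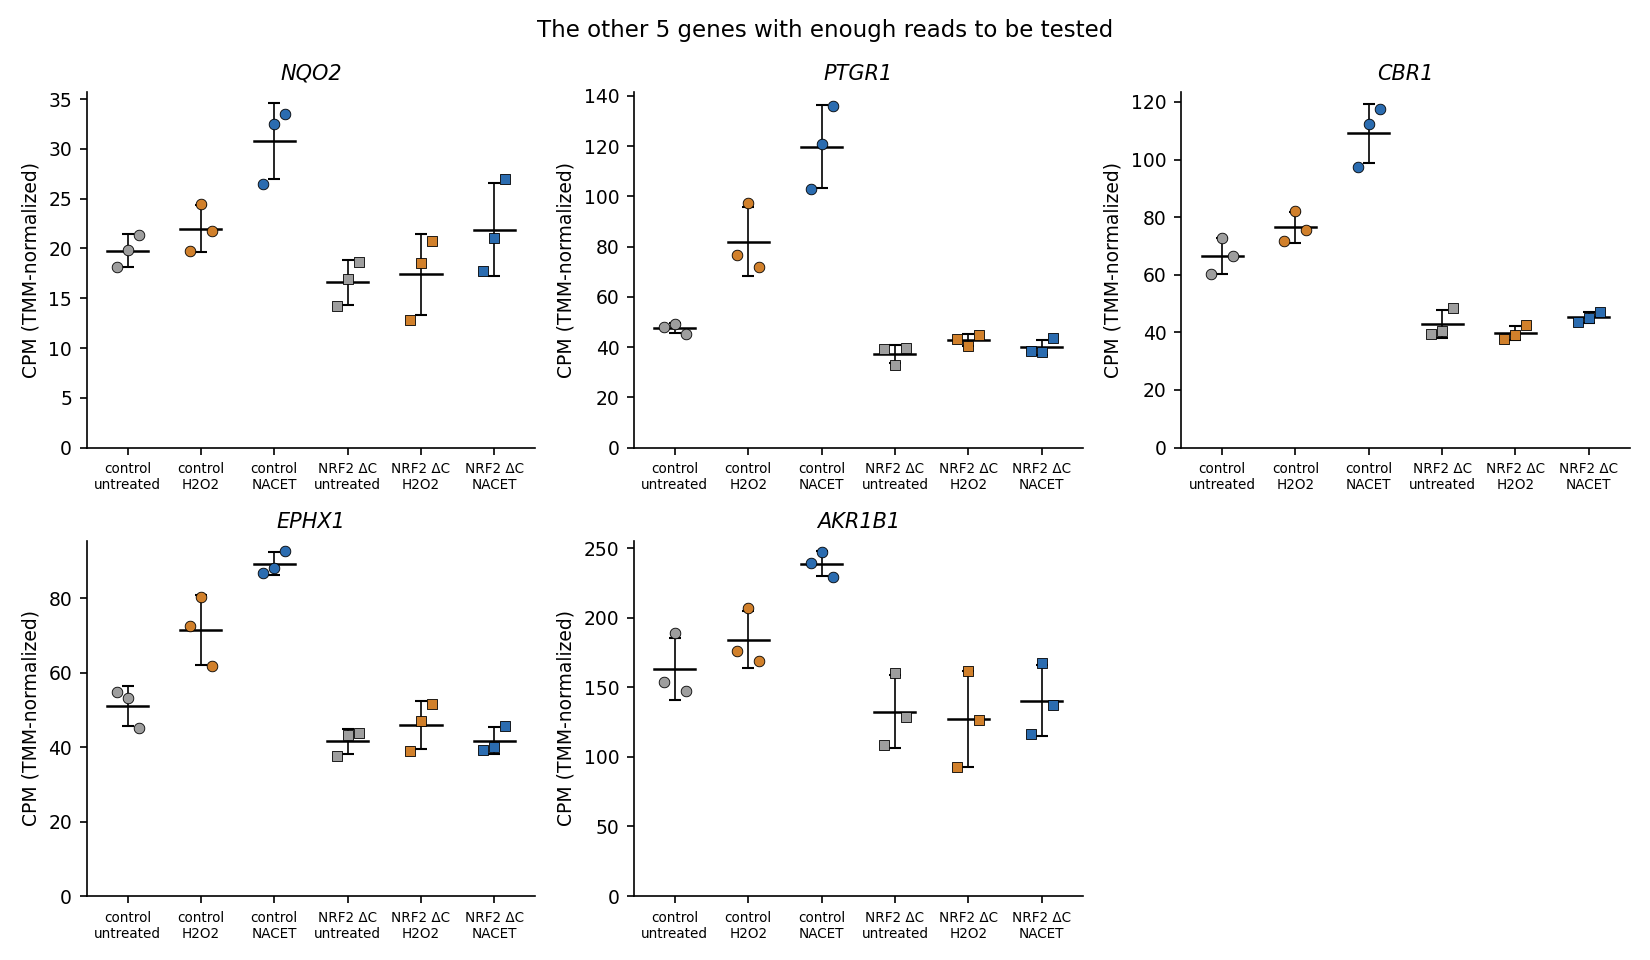
CPM of NQO2, PTGR1, CBR1, EPHX1 and AKR1B1 in each library on linear axes from 0. Circles are control and squares NRF2 ΔC libraries, and lines with bars give the mean and SD of 3. In each panel the control NACET libraries lie above the other control libraries. For PTGR1, CBR1, EPHX1 and AKR1B1 the NRF2 ΔC libraries lie below the treated control libraries, for AKR1B1 by a small margin (167.3 against 169.0 CPM). Of 12848 genes, 13.1 % lay higher without overlap with NACET than untreated in control cells, and 13.4 % than with H2O2. Between the lines 11.5 % lay lower in NRF2 ΔC cells with NACET and 12.5 % with H2O2.

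AKR1C3, a reductase of prostaglandins, steroids and carbonyls also called 17-beta-hydroxysteroid dehydrogenase type 5, lies on the plus strand of chr10:5077546-5149878. Its level in control cells was 12.2, 11.1 and 7.98 CPM untreated, 14.6, 16.4 and 12.55 CPM with H2O2, and 32.0, 29.6 and 33.2 CPM with NACET. All H2O2 libraries lay above the untreated ones by a small margin, and all NACET libraries lay well above both. AKR1C3 rose by a log2 fold change of 1.61 ± 0.16 with NACET (adjusted p = 0.00555), and with H2O2 the value was 0.48 ± 0.18 (adjusted p = 0.111). NACET exceeded H2O2 by 1.14 ± 0.12 on the log2 scale (adjusted p = 0.00383), and this call and that of NACET held without each library in turn.

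NRF2 ΔC cells had AKR1C3 at 5.80, 2.87 and 3.46 CPM untreated, at 1.23, 0.564 and 1.58 CPM with H2O2 and at 2.88, 1.925 and 2.28 CPM with NACET. The H2O2 libraries lay below all untreated ones, while the NACET libraries overlapped them. H2O2 gave a log2 fold change of -1.84 ± 0.40 (adjusted p = 0.0245), a call lost without untreated replicates 2 or 3 or without H2O2 replicate 2 (adjusted p = 0.0565 to 0.0950). NACET gave -0.77 ± 0.31 (adjusted p = 0.229), and blocked on the replicate number -0.77 ± 0.18 (adjusted p = 0.002855). The level was lower than in the untreated library of the same number in 3 of 3 NACET libraries. The counts behind these values are small, at 11 to 37 reads with H2O2 and 35 to 69 with NACET. Between the lines the log2 fold change was -1.37 ± 0.28 untreated, -3.68 ± 0.31 with H2O2 and -3.76 ± 0.17 with NACET (adjusted p = 0.0323, 0.000262 and 2.77e-05). The untreated call was lost without untreated control replicates 1 or 2 or NRF2 ΔC replicates 2 or 3 (adjusted p = 0.0993 to 0.143).

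**Figure D3:**
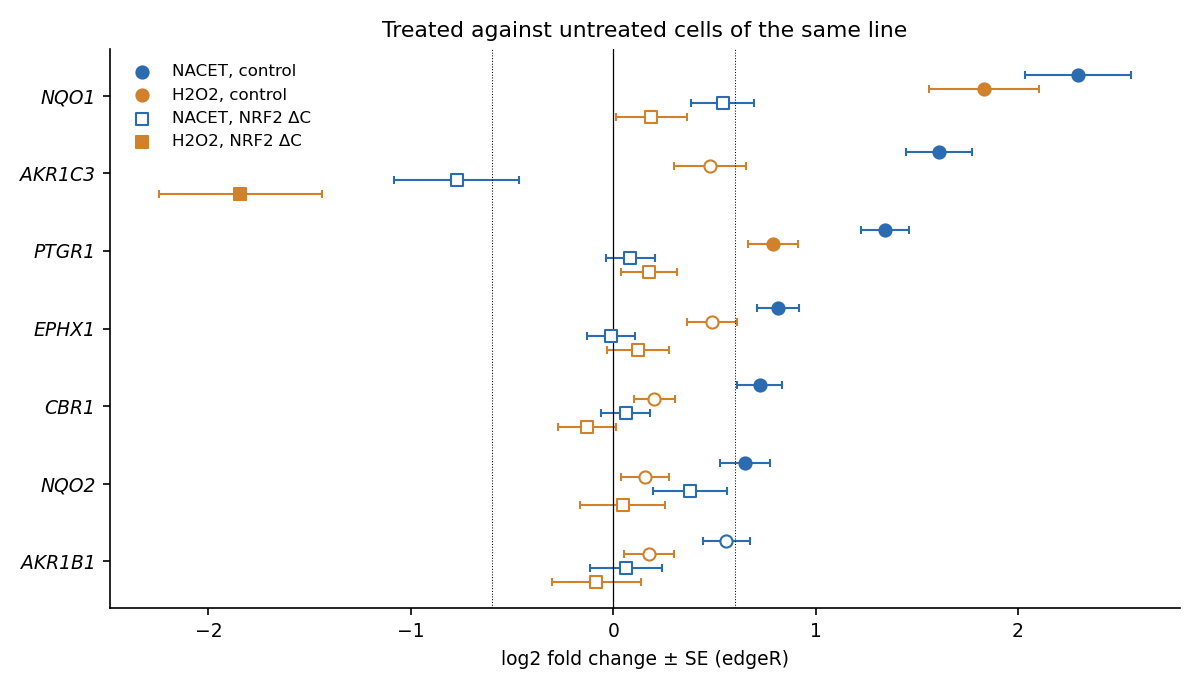
Log2 fold change with its SE of each tested gene against untreated cells of the same line, for NACET and H2O2 in control cells (circles) and NRF2 ΔC cells (squares). Filled symbols were called and dotted lines mark the fold limit of 0.6. NACET in control cells ran from 0.56 for AKR1B1 to 2.30 for NQO1, and the only filled symbol of NRF2 ΔC cells is AKR1C3 with H2O2, at -1.84.

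Whether the lines responded differently was tested as an interaction over 12 libraries, given as the log2 fold change of control cells minus that of NRF2 ΔC cells and called on adjusted p alone. For NACET, AKR1C3 (2.38 ± 0.35, adjusted p = 0.0464) and PTGR1 (1.26 ± 0.16, adjusted p = 0.0239) were called, among 0.0643 % of the 14002 genes tested. The values of NQO1 (1.76 ± 0.32), EPHX1 (0.83 ± 0.15) and CBR1 (0.66 ± 0.16) were of the same sign and not called (adjusted p = 0.148, 0.141 and 0.506). Blocking on the replicate number within each line, 0.9 % of the genes were called and 6 members were among them, the exception being NQO2 (adjusted p = 0.447). NQO1 then had 1.82 ± 0.19 (adjusted p = 2.56e-05). Without untreated control replicate 2 and with no block, NQO1 had 2.14 (adjusted p = 0.00266). That library is singled out by its own high NQO1, so this value is no independent support. Leaving out any other single library did not call NQO1, and over all alternatives its adjusted p reached 0.554. The call of AKR1C3 was lost with RLE and with upper-quartile scaling (adjusted p = 0.0516 and 0.0515, with the value at 2.38 in both), and it was lost without any of 11 of the 12 libraries, all but NRF2 ΔC untreated replicate 2, with values of 2.02 to 2.54 (adjusted p = 0.0537 to 0.183). PTGR1 lost its call without any of 8 libraries, namely untreated control replicates 1 and 3, control NACET replicates 2 and 3, NRF2 ΔC untreated replicates 1 and 3 and NRF2 ΔC NACET replicates 1 and 2, with values of 1.16 to 1.26 (adjusted p = 0.0618 to 0.128).

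For H2O2 no member was called in the interaction, where 0.0214 % of 13987 genes were, and 806 of those genes had an unadjusted p under 0.05. AKR1C3 had 2.30 ± 0.45 and NQO1 1.62 ± 0.35 (adjusted p = 0.137 and 0.211), and DESeq2 called both. With the block, 6.91 % of the genes were called, with AKR1C3, NQO1 and PTGR1 among them (2.31, 1.67 and 0.58, adjusted p = 4.36e-05, 7.25e-06 and 0.00579). Without untreated control replicate 2, again the library with high NQO1, and with no block, NQO1 had 2.02 (adjusted p = 0.0287). No other single library left out gave a call of NQO1, and over all alternatives its adjusted p reached 0.629.

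**Figure D4:**
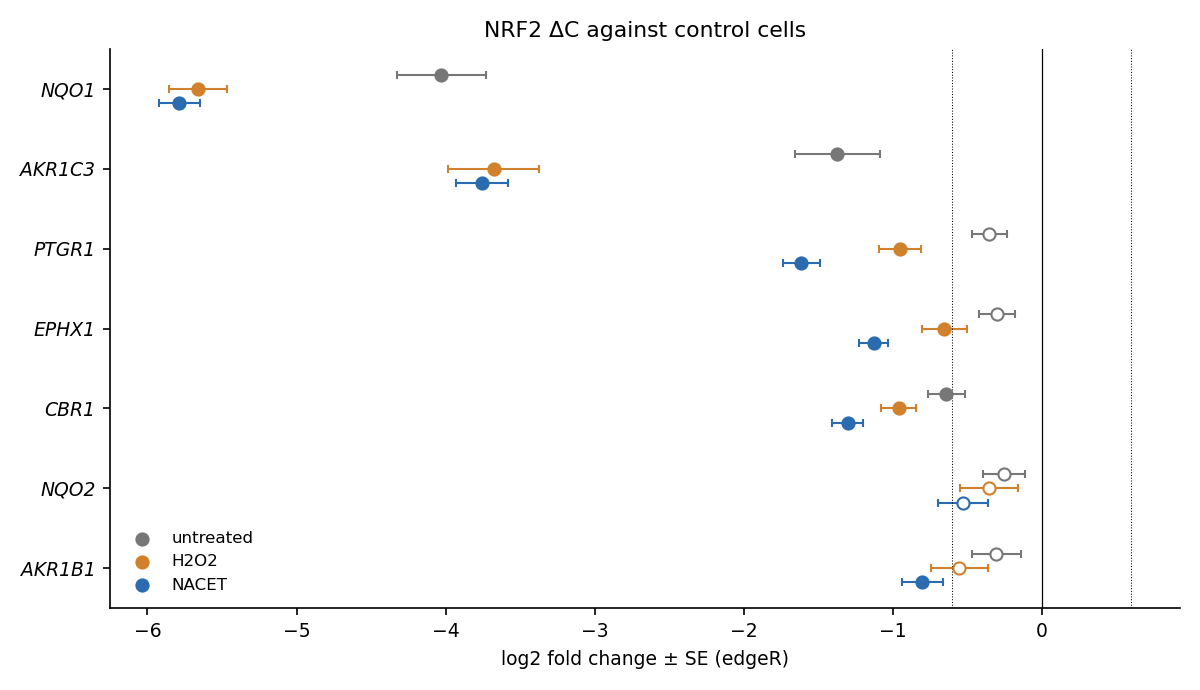
Log2 fold change with its SE of NRF2 ΔC against control cells for each tested gene, untreated, with H2O2 and with NACET. Filled symbols were called and dotted lines mark the fold limit of 0.6. All 21 values are below 0, from -0.25 for NQO2 untreated to -5.79 for NQO1 with NACET, and for each gene the untreated value is nearest to 0.

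AKR1B10, an intestinal-type reductase of aldehydes and retinal next to AKR1B1 at chr7:134212319-134226164 on the plus strand, had few reads. It had 0, 1 and 1 reads in untreated control cells, 5, 13 and 6 with H2O2 and 8, 21 and 12 with NACET. In NRF2 ΔC cells it had 0, 0 and 1 reads untreated, 1, 1 and 2 with H2O2 and none with NACET. Both treatments lay above untreated control cells and above NRF2 ΔC cells without overlap. The ratio of scaled counts in control cells was 21.1 for NACET (95 % exact interval 5.48 to 180.2) and 12.9 for H2O2 (3.19 to 112.3), from 2 reads untreated, and these intervals cover counting error only. With NACET control cells were 13.8 times higher than NRF2 ΔC cells when a floor of 3 reads over the group stood in for 0. That value does not cover counting error.

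AKR1C1, the 20-alpha-hydroxysteroid dehydrogenase, lies on the plus strand of chr10:5005445-5025475. It had 4, 4 and 5 reads in control cells with NACET, against 0, 0 and 1 untreated and 0, 5 and 0 with H2O2. NRF2 ΔC cells had 0, 0 and 3 reads untreated, none with H2O2 and 1, 0 and 0 with NACET. The ratio of NACET to untreated control cells was 13.4, with an exact interval of 2.01 to 568.9, from 13 reads against 1, and a fit without the filter did not call it (adjusted p = 0.114). AKR1C2, the 3-alpha-hydroxysteroid dehydrogenase on the minus strand of chr10:5029967-5060223, had at most 2 reads in any library, so a change was not detectable at this depth.

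AKR1C1, AKR1C2 and AKR1C3 are close copies, and reads that mapped to several places were not counted. Of the 50-base windows of the canonical transcript of AKR1C2, 45.7 % occur letter for letter in that of AKR1C1, and of those of AKR1C3, 14.9 % occur in AKR1C2 and 11.9 % in AKR1C1. The counts of AKR1C1 and AKR1C2 may therefore be too low. With the 3 genes summed, the log2 fold change with NACET in control cells was 1.62, beside 1.61 for AKR1C3 alone, and the sum had the same calls as AKR1C3 in all comparisons. AKR1B1 and AKR1B10 shared no such window, while 18.0 % of those of AKR1B10 occur in transcripts of other genes, AKR1B15 first among them.

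**Figure D5:**
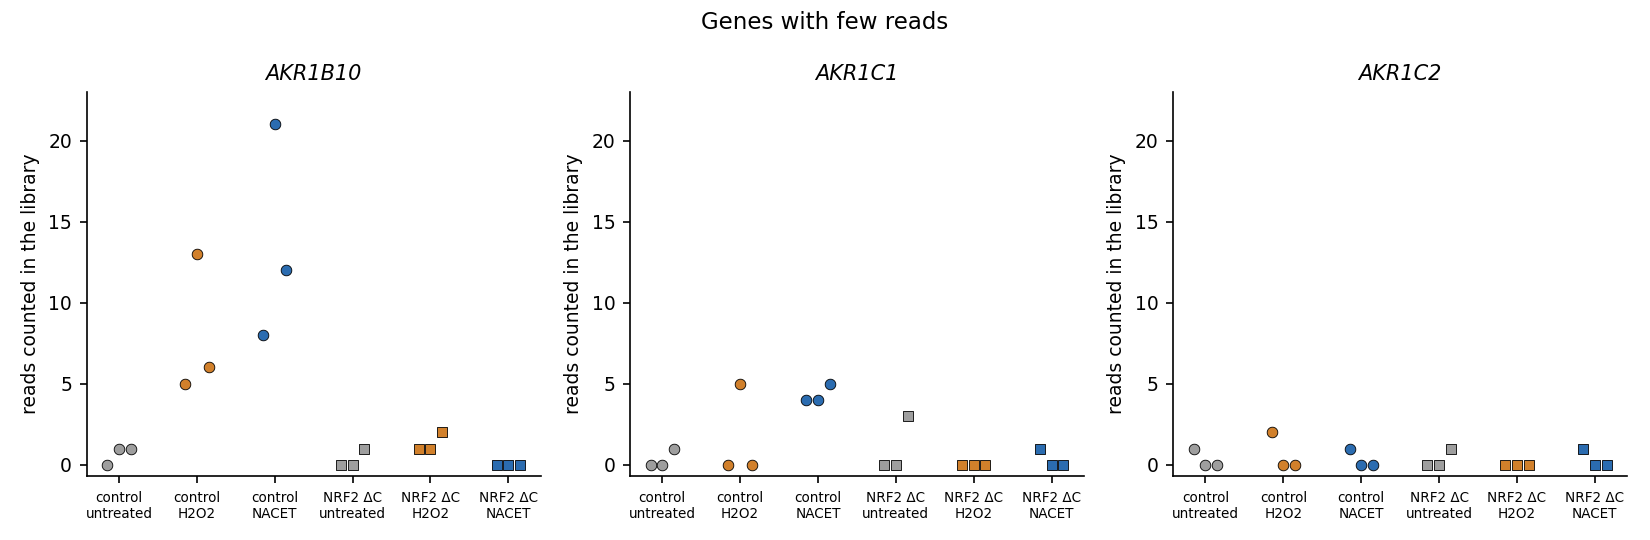
Reads counted in each library for AKR1B10, AKR1C1 and AKR1C2, by group. Circles are control and squares NRF2 ΔC libraries. AKR1B10 reached 21 reads in control cells with NACET and at most 2 in NRF2 ΔC cells.

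Levels between genes were compared per kilobase of annotated exon, with all annotated transcripts of a gene joined. That length is 2971 bases for NQO1 and 3654 for AKR1B1, while their canonical transcripts have 2521 and 1361 bases. The order of genes, that of NQO1 and AKR1B1 included, therefore depends on the length used. In untreated control cells NQO1 was the highest at 76.8 ± 31.3 CPM per kb (SD, n = 3), followed by AKR1B1 at 44.7 ± 6.1, CBR1 at 27.2 ± 2.6, EPHX1 at 20.6 ± 2.1, PTGR1 at 12.6 ± 0.5, NQO2 at 8.15 ± 0.68 and AKR1C3 at 2.67 ± 0.56. No neighbours in this order overlapped, and AKR1B10, AKR1C2 and AKR1C1 were all under 0.02 CPM per kb and overlapped. With NACET the order was the same down to AKR1C3, at 374.8 ± 25.4 CPM per kb for NQO1 and 8.08 ± 0.47 for AKR1C3, and EPHX1 and PTGR1 overlapped. In untreated NRF2 ΔC cells AKR1B1 was the highest at 36.2 ± 7.2 CPM per kb, and NQO1, at 4.72 ± 0.79, came after NQO2 at 6.84 ± 0.93. CBR1 and EPHX1 overlapped there.

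Among the genes with levels most like those of NQO1 over the 18 libraries, by Pearson's r of log2(CPM + 1), were MGST1 (0.979), POPDC3 (0.978), AJAP1 (0.976) and BHMT2 (0.974), out of 12841 genes that averaged at least 1 CPM. MGST1 is a microsomal glutathione transferase. Of the members, CBR1 had 0.957, AKR1C3 0.93, PTGR1 0.901, EPHX1 0.899, AKR1B1 0.798 and NQO2 0.655. The libraries share lines and treatments, so these values describe the 6 groups more than 18 separate points. AJAP1 had 7.52 to 8.53 CPM in untreated control cells and no read in untreated NRF2 ΔC cells.

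Among 8 established NRF2 targets listed for context, such as TXNRD1, GCLM and HMOX1, all 8 were called higher in NACET-treated and 6 in H2O2-treated control cells. Of all genes tested, 1.39 % and 2.96 % were called higher there. In NRF2 ΔC cells none of the 8 was called with NACET. With H2O2 there 3 were called higher, where 1329 of 13543 genes were called in either direction. All 8 were called lower in NRF2 ΔC than in control cells with NACET, 4 with H2O2 and 3 untreated. The shares of all genes called lower were 3.86 %, 4.2 % and 3.12 %. In the interaction with NACET 2 of the 8 were called, TXNRD1 among them (1.39 ± 0.14, adjusted p = 0.00377).

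Some other enzymes of the same chemistry were also called. With NACET and H2O2, 376 of 13696 and 867 of 13691 genes were called in control cells. The counts were 188 of 13542 and 1329 of 13543 in NRF2 ΔC cells, and 499 of 13581 between the treatments in control cells. Between the lines 528 of 13710 genes were called untreated, 648 of 13627 with NACET and 763 of 13580 with H2O2. Whether these enzymes were called more often than other genes was not tested. Of the 16 other carbonyl and quinone reductases, 15 were tested with NACET in control cells, and AIFM2, the ubiquinone reductase that restrains ferroptosis, rose by 0.66 ± 0.12 while FDXR, the mitochondrial ferredoxin reductase, fell by 0.83 on the log2 scale. FDXR fell by 0.95 with NACET in NRF2 ΔC cells too, and it rose with H2O2 in control cells (1.16 ± 0.16) and in NRF2 ΔC cells (1.86 ± 0.20). With H2O2 in NRF2 ΔC cells the quinone reductase CRYZ fell by 0.80 and TP53I3, a p53 target, rose by 0.89. CBR3, a close relative of CBR1, was higher with NACET than with H2O2 (1.36 ± 0.26). Of the 2 to 3 tested other aldo-keto reductases, 3 other alkenal and alkenone reductases and 3 other epoxide hydrolases, none was called with either treatment against untreated cells of either line. EPHX2, the soluble epoxide hydrolase, was lower in NRF2 ΔC cells untreated (-0.74 ± 0.15) and with NACET (-0.84 ± 0.14). Of 7 tested aldehyde dehydrogenases, ALDH1A3, which makes retinoic acid, fell in both lines. On the log2 scale control cells had -1.45 ± 0.18 with NACET and -0.80 ± 0.22 after H2O2 (adjusted p = 0.0127 and 0.0485). NRF2 ΔC cells had -1.62 ± 0.13 and -1.22 ± 0.14 (adjusted p = 0.00667 and 0.002975). ALDH3B1 fell by 0.73 with H2O2 in control cells, and by 0.68 with NACET and 0.81 with H2O2 in NRF2 ΔC cells. ALDH3A2, the fatty aldehyde dehydrogenase, was lower in NRF2 ΔC cells with NACET (-0.99 ± 0.09) and H2O2 (-0.95 ± 0.11).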

How the data were processed

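TruSeq mRNA libraries were read from a single end. The authors aligned the reads to hg19 (TopHat 2.1.0 with Bowtie) and ran HTSeq-count 0.11.2 over genes, without strand and without multi-mapped reads. The deposited files hold whole-number counts per gene symbol, not normalized. The annotation is not given in the sources used here. The 5 summary rows of each file, 25.8 to 27.9 % of its total, were left out. Groups follow the labels. Each pair of groups was fitted on its 6 libraries with edgeR 4.0.16 (R 4.3.3; filterByExpr, TMM, quasi-likelihood test, Benjamini-Hochberg over all genes tested); interactions used 12. Tests were tried on simulated data. The members, lists and limits were chosen with earlier results of these data known. Named are all members, the related enzymes called, and the 5 genes most like NQO1. Some items these rules name are not reported here. The labels do not say what replicate numbers mark. Deviations from group means of same-numbered libraries correlated at 0.442 to 0.846 in 15 pairs within a line. In 9 pairs between lines, replicates 1 and 3 correlated at 0.563 to 0.739 and replicate 2 at -0.259 to -0.034. Libraries of different numbers were not correlated for comparison. The replicate block between lines matched all 3 numbers, replicate 2 included. Genome positions are GENCODE v44lift37 on hg19, and motifs were searched 1000 bases upstream of canonical transcripts. Counts at this depth leave replicate spread as the main error, except for genes with few reads. Alternatives were DESeq2 1.42.0, RLE and upper-quartile scaling, no filter, 1 fit of 18 libraries, the replicate block, fold limits of 1 and none, and leaving out each library.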

Additional observations from a re-analysis of the deposited data

Results flagged for a closer look

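The test of the interaction called the response to NACET different between control and NRF2 ΔC cells for AKR1C3 and PTGR1. The log2 fold change in control cells exceeded that in NRF2 ΔC cells by 2.38 for AKR1C3 (1.61 against -0.77) and by 1.26 for PTGR1 (1.34 against 0.08). Each call was lost in most of the 12 fits that left out 1 library, as given above. Those fits called 0 to 2 members. The call of AKR1C3 was lost also with RLE (adjusted p = 0.0516) and upper-quartile scaling (0.0515).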

How the results depend on the processing

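Of 430 log2 fold changes of members under settings other than leaving out a library, 412 kept their direction and their side of the limits. EPHX1 with NACET in NRF2 ΔC cells turned from -0.012 to 0.012 with upper-quartile scaling and to 0.0060 in 1 fit of all 18 libraries, none of them called. Leaving out a library turned 12 of 504 values, none of them called. With NACET in NRF2 ΔC cells, EPHX1 then ranged from -0.084 to 0.030 and AKR1B1 from -0.071 to 0.229. With H2O2 there, NQO2 ranged from -0.104 to 0.238 and AKR1B1 from -0.283 to 0.112, and NQO2 in the interaction with H2O2 from -0.091 to 0.253. In control cells a fold limit of 1 called 3 members for NACET (156 of 13696 genes) and 1 for H2O2 (282 of 13691), and between the lines with H2O2 it called 2 (521 of 13580). No fold limit called 2 members between NACET and H2O2 in control cells (799 of 13581). In the interaction with NACET, DESeq2 called 5 members, the replicate block within each line 6, and RLE or upper-quartile scaling 1. In that with H2O2, DESeq2 called 2, the replicate block 3 and 1 fit of all 18 libraries 1. With the replicate number as a block, 1 member was called with NACET in NRF2 ΔC cells, and no other call between 2 groups changed. Without 1 library, control cells had 2 to 5 members called for NACET, 2 to 2 for H2O2 and 1 to 1 between the treatments. NRF2 ΔC cells had 0 to 0 for NACET and 0 to 1 for H2O2. Between the lines the counts were 1 to 2 untreated, 5 to 6 under NACET and 4 to 5 under H2O2, and in the interactions 0 to 2 for NACET and 0 to 1 for H2O2. Over all genes, leaving out 1 library gave 31 to 337, 290 to 1047 and 164 to 588 calls in control cells, 0 to 462 and 275 to 2582 in NRF2 ΔC cells, 261 to 901, 320 to 917 and 400 to 2416 between the lines, and 2 to 8 and 0 to 11 in the interactions, in the same order. Counts over all genes moved by more than 1.5 times under the block: from 376 to 1026 (NACET), 867 to 1400 (H2O2) and 499 to 1019 (NACET against H2O2) in control cells, 188 to 1195 and 1329 to 2538 in NRF2 ΔC cells, 528 to 843, 648 to 1018 and 763 to 1524 between the lines, and 9 to 126 and 3 to 967 in the interactions. DESeq2 called 608 genes in the first of these, 598 for NACET in NRF2 ΔC cells, and 28 and 80 in the interactions. For NACET in NRF2 ΔC cells 1 fit of all 18 libraries called 641, in the interaction with NACET RLE called 3, upper-quartile scaling 4 and that fit 6, and in the interaction with H2O2 no filter called 13 and that fit 19. The cause of these shifts was not tested. AKR1C1 and AKR1C2 summed did not pass the filter in any comparison. With a pseudocount of 0.1, 4 of the 5 genes most like NQO1 were the same. Depth limits AKR1B10, AKR1C1 and AKR1C2.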
